A study of Saccharomyces cerevisiae with 167 samples.

Results

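The 290 intergenic regions of the budding yeast genome with the least histone H4 in unstressed cells were followed through heat shock, log and stationary phase, loss of the remodeller subunit Snf2, H4 acetylation and Snf2 binding. They are the lowest 5% of 5811 intergenic probes, among 13029 probes in all, by the mean of the 3 arrays that compared H4 immunoprecipitated from unstressed cells with genomic DNA. Each array was centred on its median. A region here is a single probe. For 78 of the 290 the gap between genes held several probes, so a gap named by its neighbours can hold further members. An intergenic probe is named after the open reading frame (ORF) to its left, and its genes were taken from the gene order of the R64 annotation. A gene was called served where its start faced the probe: 177 regions served 1 gene, 71 served 2 and 42 served none.

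Nucleosomes wrap DNA around an octamer of histones that holds H4, and promoters of active yeast genes carry a stretch upstream of the start where nucleosomes are sparse or quickly replaced. Acetylation of the H4 tail loosens chromatin and is low near telomeres, where the Sir proteins silence genes. Snf2 is the ATPase of the SWI/SNF complex, which slides and evicts nucleosomes at promoters.

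The series holds 167 two-colour arrays. H4 carried a Myc tag and was recovered with an anti-Myc antibody from formaldehyde-fixed chromatin sheared to fragments under a kilobase. Acetylated H4 was recovered with an antibody to the acetylated tail, Myc-tagged Snf2 was set against input DNA, and mRNA was measured on the same array design. Every value below is a log2 ratio of the first-named sample over its reference.

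The groups used here were unstressed cells at 30C, cells heat shocked at 39C, log-phase and stationary-phase cells, and a heat time course of wild-type and snf2 deletion (YOR290C) cells with time codes T0 to T900, whose unit the chromatin labels do not give. Each group had 3 arrays, except Snf2 after heat shock (5), the T0 groups of chromatin and of mRNA (2 in each strain) and a few later chromatin codes (2). The H4 time-course arrays of both strains had wild-type genomic DNA as reference, while some acetylation arrays of the deletion strain are labelled with deletion-strain DNA. Nothing says that replicate arrays came from separate cultures, so p-values measure the spread between arrays, which may be technical. On the H4 time-course arrays the SNF2 ORF probe was between -2.80 and -0.85 in deletion cells and between -0.12 and 0.42 in wild-type cells, and these ranges do not overlap. On the T0 mRNA arrays it was 0.32 and 0.67 in wild type and -0.05 and -0.03 in the arrays labelled snf2 deletion, so these mRNA arrays do not show a lost transcript and are named by their label.

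On the 3 arrays used for the choice, the 290 regions had a median H4 level of -0.76 and ran from -2.23 to -0.61. The median was -0.04 over all 5811 intergenic probes and 0.06 over 6269 ORF probes. The last regions inside the limit lay between RPS22A and RPL39 (-0.61), before TDH1 (-0.61) and between MOT1 and RPS9A (-0.61). The first outside lay before PDR12 (-0.61), PIB1 (-0.61) and ASP3-4 (-0.61), so the limit separates regions with nearly equal values. Leaving out any 1 of the 3 arrays kept 255 of the 290.

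The lowest values of all stood beside the ribosomal DNA repeats. The region between RRT15 and MAS1 had H4 levels of -2.43, -1.83 and -2.44, and the RRT15 promoter had -2.12, -1.78 and -2.25. The 17 probes of the ribosomal DNA itself had a median of -2.22. These genes lie at the edge of a long tandem array of near-identical repeats, so probes that share repeat sequence cannot be assigned to 1 copy.

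The region between COS4 and DDI3, near a chromosome end, had -1.89, -2.25 and -1.33. Promoters of cell wall proteins and glycolytic genes were also among the lowest. The region shared by CCW12, a cell wall mannoprotein, and YLR111W had -1.52, -1.60 and -2.12. The CWP2 promoter, of another cell wall mannoprotein, had -1.40, -1.63 and -1.77, and that of SED1, an anchored wall glycoprotein, had -1.35, -1.49 and -1.51.
The promoter of TDH3, the main glyceraldehyde-3-phosphate dehydrogenase, had -1.66, -1.38 and -1.18, and that of CDC19, pyruvate kinase, had -1.41, -1.34 and -1.19. TYE7, a regulator of glycolytic genes, had -1.18, -1.41 and -1.38. The PMA1 promoter, of the plasma membrane proton pump, had -1.23, -1.30 and -1.16. These arrays made the choice, so the values are a description.

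The region between COS4 and DDI3, near a chromosome end, had -1.89, -2.25 and -1.33. It did not recur on other arrays: its log-phase levels were 0.63, 0.24 and -0.39, and its wild-type T0 levels were -0.06 and -0.36.

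Grouped by the genes they serve, 51 of 129 ribosomal protein promoter probes were among the 290 (39.5%). The share was 14 of 23 for plasma membrane and cell wall genes (60.9%), among them TIP1, CRH1, SCW4, CIS3, HSP150, CWP1, EXG1, FKS1, GAS1 and YGP1. It was 7 of 21 for glycolysis and fermentation (PGK1, FBA1, PDC1 and ADH1 besides TDH3, CDC19 and TDH1), 10 of 35 for transcription factors of growth and stress, and 7 of 35 for translation factors. Hexose and other nutrient transporters had 4 of 22 (18.2%: GNP1, MUP1, ZRT2 and TAT2). Histone genes had 1 of 7 (14.3%), the promoter shared by HHT2 and HHF2. General stress genes had 2 of 28 (7.14%: PNC1 and HOR7). Chaperones had 1 of 36 (2.78%: SSA1), the proteasome 1 of 31 (3.23%: PRE2) and chromatin remodelling subunits 1 of 30 (3.33%: SNF11). Ribosome biogenesis (45 probes), amino acid biosynthesis (49) and oxidative phosphorylation (35) had none. The gene lists were written with earlier results of these data known, and the counts describe the choice without testing it.

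**Figure D1:**
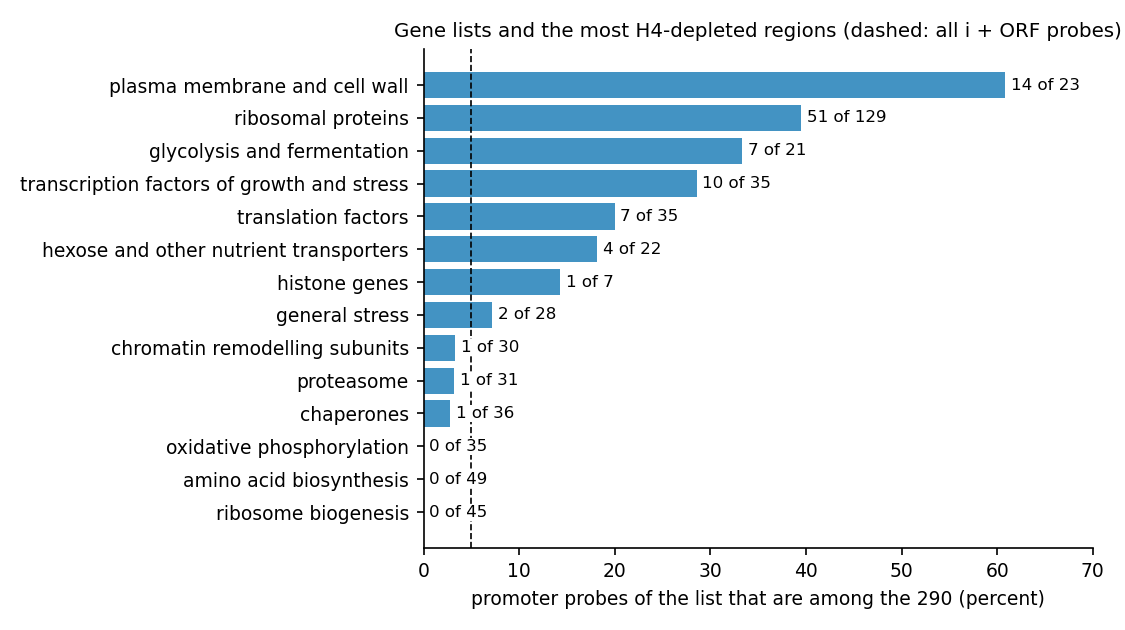
Share of each gene list's promoter probes that are among the 290 regions (horizontal axis, percent), with counts at the bars and a dashed line at the share over all intergenic probes. Cell wall (14 of 23), ribosomal protein (51 of 129) and glycolysis (7 of 21) promoters stand highest, and 3 lists have no region.

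The regions lay more often between divergent genes, where a single gap holds both promoters, with 110 of 290 (37.9%) against 26.9% of all intergenic probes. Convergent gaps, which hold no promoter, made up 28 of 290 (9.66%) against 24.4%. The gene to the right was a tRNA gene at 26 regions (8.97% against 4.30%) and a snoRNA gene at 12 (4.14% against 0.95%). Beside 1 of the 10 outermost genes of a chromosome end lay 28 regions (9.66% against 6.94%).

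The low H4 level recurred on arrays that the choice did not use. In log phase the array medians of the 290 regions were between -0.75 and -0.70, and 207 regions were lower than the array centre (limma, adjusted p under 0.05 over all probes), where 8.85% of all probes were. On the heat-shocked arrays the medians were between -0.80 and -0.53 and 189 were lower (6.79% of all probes). At T0 of the time course 170 were lower in wild type (4.18%) and 94 in snf2 deletion cells (2.08%). In stationary phase the medians were between -0.42 and -0.41 and 50 were lower (1.76%). These counts depend on the scaling of the arrays. Scaled to 1 median absolute deviation, T0 had 177 lower in wild type and 171 in deletion cells. Log phase then had 138 and stationary phase 70.
The lowest 5% of intergenic probes shared 141 of the 290 (48.6%) in log phase, 152 (52.4%) at wild-type T0, 148 (51.0%) after heat shock, 154 (53.1%) at T0 of the deletion strain and 71 (24.5%) in stationary phase.
Single arrays or sets weighed on these counts. Without log-phase array 2 or 3 the log-phase count was 47 or 115, without heat-shocked array 2 or 3 it was 105 or 89, and without the whole of set 2 or 3 of the time course, T0 and later codes in both strains, the T0 count was 35 or 33 in wild type and 8 or 2 in the deletion strain. Leaving out any 1 of the 6 log and stationary arrays left between 0 and 26 stationary calls.

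**Figure D2:**
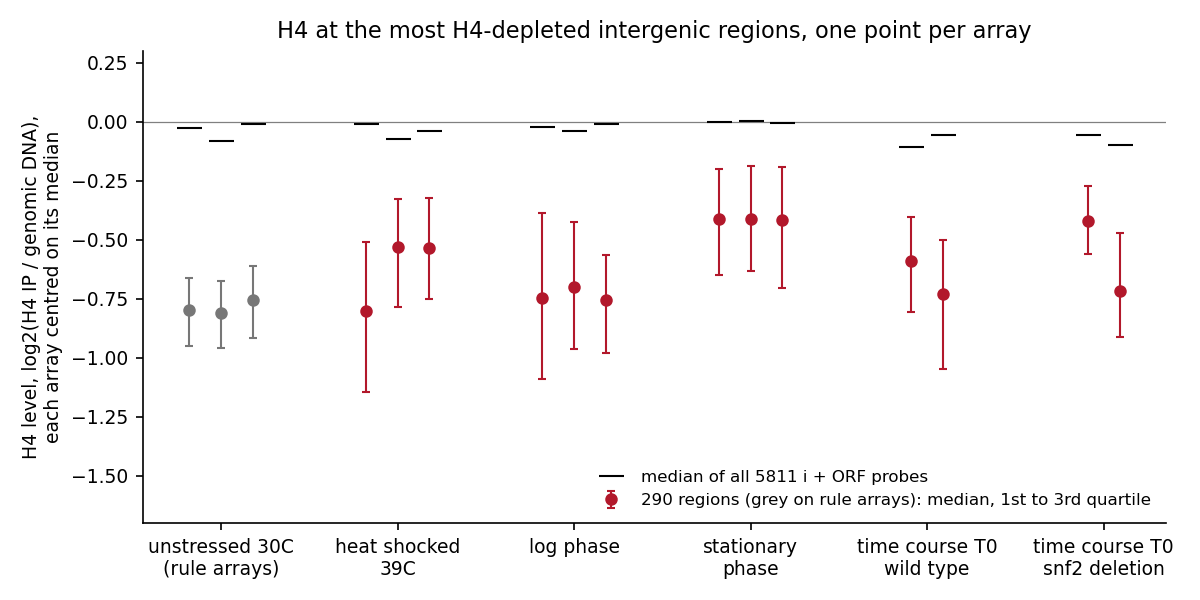
H4 level of the 290 regions on each array (vertical axis, log2 of H4 immunoprecipitate over genomic DNA, centred), with points at the median, bars from the first to the third quartile and black dashes at the median of all intergenic probes. The members' median lies below that of all intergenic probes on every array shown. The stationary arrays, between -0.42 and -0.41, are the closest to it together with 1 of the deletion T0 arrays.

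The same regions can be read array by array outside the choice. RRT15 to MAS1 had log-phase levels of -2.79, -2.71 and -2.49 (mean -2.66, SE 0.16, adjusted p = 0.0010). SED1 had -1.91, -1.46 and -1.38 in log phase and -1.72 and -1.39 at wild-type T0. CDC19 had -1.03, -1.11 and -0.94 in log phase and -1.18, -0.92 and -1.03 in stationary phase. For SED1 and CDC19 no array of these groups came near 0. CCW12 was discordant, with -0.88, -1.17 and -1.08 in log phase but 2.80, -1.53 and -1.56 in stationary phase, and neither mean passed the test (adjusted p = 0.353 and 0.948). Both states shared 1 fit, so the stationary value of 2.80 widened the spread behind the log-phase p-value too. The log-phase arrays themselves lay close together.

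Heat shock moved H4 at these regions in both directions. On 3 arrays that set heat-shocked H4 directly against unstressed H4, 72 of the 290 regions fell, where 11.5% of all probes did, and 46 rose, where 10% did. With log ratios as deposited, uncentred, 63 fell and 59 rose. Without array 1 or 2 the calls in both directions dropped from 118 to 75 or 57. The labels do not say whether the unstressed H4 on these arrays came from the same precipitates as the arrays of the choice.

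The largest falls were at regions that serve CUE4, SSA1, the histone pair HHT2 and HHF2, NCE102 and HOR7. The region between CUE4 and YML100W-A had -1.72, -1.99 and -1.34 (mean -1.69, SE 0.12, adjusted p = 0.00033). The region shared by SSA1, an Hsp70 chaperone, and EFB1, a translation elongation factor, had -1.60, -1.59 and -1.54 (mean -1.58, SE 0.06, adjusted p = 5.77e-05). The promoter shared by HHT2 and HHF2, which encode histones H3 and H4, had -1.14, -1.71 and -0.62 (mean -1.16, SE 0.18, adjusted p = 0.0077). All arrays agreed in sign at these 3 regions, and the spread was widest at HHT2 and HHF2.
NCE102, a protein of plasma membrane furrows, had -0.99, -1.24 and -1.03, and HOR7, a stress-responsive gene, had -0.84, -1.18 and -0.73. The TDH3 promoter, already among the lowest at 30C, had -0.98, -0.72 and -0.86 (adjusted p = 0.00069), and that of its paralogue TDH1 had -0.68, -0.83 and -0.66 (adjusted p = 0.00094).
At 6 of these 7 regions mRNA of a served gene rose on the direct heat arrays, where 16.6% of all ORF probes rose, and at none did it fall. These are the largest falls with the TDH3 and TDH1 promoters, and do not stand for all 72 regions that fell. Of those 72, 28 served genes that rose and 4 genes that fell. Another 26 had no gene called and 14 no gene measured. SSA1 rose by 1.55 (arrays 1.72, 1.54 and 1.38), CUE4 by 1.55, HOR7 by 2.30 and TDH1 by 1.07. HHT2 had 0.75, 0.84 and 0.31 (adjusted p = 0.0034) and TDH3 0.78, 0.90 and 0.25 (adjusted p = 0.0029). NCE102 had -0.49, -0.47 and 0.14, EFB1 0.33, 0.67 and 0.21 and HHF2 0.08, 0.74 and 0.09, and none of these passed the test. TSL1, a trehalose synthase subunit that lies beyond YML100W-A and was looked up after its values were seen, rose by 1.31 (arrays 1.56, 0.93 and 1.45).

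The largest rises were at DFR1, the regions beside HXT11 and HXT12, MF(ALPHA)1 and CHO2. DFR1, dihydrofolate reductase, had 0.72, 0.86 and 0.85 (mean 0.81, SE 0.06, adjusted p = 0.00055), and its mRNA fell by 0.96. MF(ALPHA)1, which encodes the alpha-factor pheromone, had 0.68, 0.67 and 0.67, and its mRNA fell by 1.94. CHO2, a phospholipid methyltransferase, had 0.60, 0.77 and 0.65, and its mRNA fell by 0.82.
A probe between HXT11 and HPF1 and another between HXT12 and CSS1 rose by 0.68 and 0.70. Both gaps hold a further member probe, which these values do not cover. The gaps lie beside paralogous hexose transporter genes, and how much DNA their probes share was not tested. PMA1 rose by 0.36 (arrays 0.17, 0.53 and 0.38) and its mRNA fell by 1.00.

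Over all regions the H4 change was set beside the mRNA of the genes served. Of 300 served genes with an ORF probe, mRNA rose for 50 on heat shock, where 16.6% of ORF probes rose, and fell for 95, where 18% fell. The largest rises were of TKL2, a transketolase (3.74), PNC1, a nicotinamidase (2.63), HOR7, ECM12 (2.28) and TIP1, a wall mannoprotein (2.25). Among the largest falls were the ribosomal protein genes RPL2A (-3.42), RPS0B (-3.22), RPS0A (-3.21) and RPL24A (-3.16).
At the 44 regions whose genes rose, the median H4 change was -0.32, with 28 regions lower and 1 higher. At the 81 whose genes fell it was 0.11, with 28 higher and 4 lower. At 103 regions with no gene called it was -0.07, with 26 lower and 6 higher. The other intergenic probes gave a median of -0.08 where genes rose (735 probes, 195 lower and 36 higher) and 0.02 where genes fell (811 probes, 102 higher and 67 lower). The difference between these medians was not tested.

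**Figure D3:**
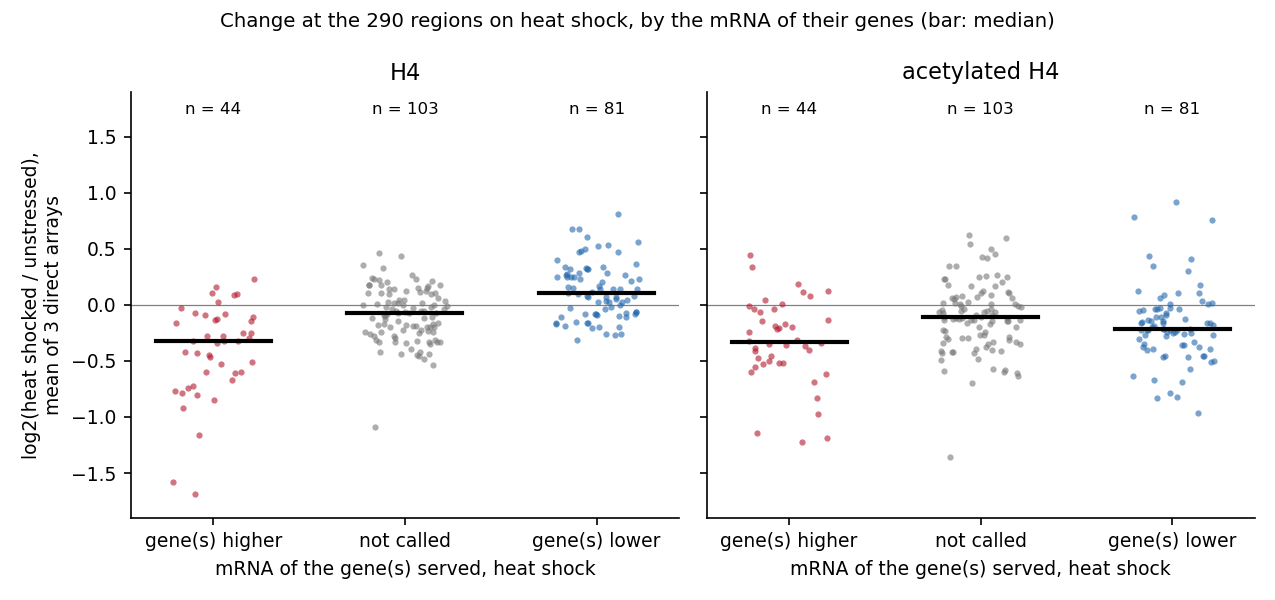
Change of H4 (left) and acetylated H4 (right) on heat shock at each of the regions (vertical axis, log2 of heat shocked over unstressed, mean of 3 arrays), by whether the mRNA of the genes served rose, was not called or fell; bars are medians. For H4 the medians are -0.32, -0.07 and 0.11, and for acetylated H4 they are -0.33, -0.11 and -0.21.

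The ribosomal protein promoters show the second direction. Of these 51 regions 16 gained H4 and 1 lost it, with a median of 0.14, and 52 of their 55 mRNAs fell, with a median of -2.56. The region shared by RPS15 and RPP2A had H4 changes of 0.49, 0.54 and 0.39 (mean 0.48, adjusted p = 0.0042). RPL12B had 0.11, 0.35 and -0.03 and did not pass the test, although its mRNA fell by 2.64. Of the 7 glycolysis regions 5 lost H4 and none gained it, and of the 14 cell wall regions 3 gained it and 2 lost it. Through genomic DNA, the median of the 290 was -0.76 at 30C and -0.61 at 39C. Since the 30C arrays made the choice, that pair is a description.

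In the time course the wild-type array medians averaged -0.66 at T0 and -0.70 at T900, and those of deletion cells -0.57 and -0.52. No region passed the limma test for T900 against T0 in wild type (18 at an unadjusted p under 0.05; 0.0538% of all probes were called), in deletion cells (15; 0% of all probes) or for the difference between the strains' responses (5; 0% of all probes), with 2 arrays at T0.

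The strains differed in level. Averaged over the 7 time codes, 48 of the 290 regions had more H4 in snf2 deletion cells than in wild type, where 2.12% of all probes did, and none had less (88 in either direction at an unadjusted p under 0.05). Without set 2 the count was 17, and without set 3 it was 24. The fit took all arrays of the course as independent, though same-numbered samples deviated together on average (r = 0.36). The SE and p-values below therefore do not measure the spread between sets.
SED1 averaged -1.43 in wild type and -0.45 in deletion cells (difference 0.98, SE 0.17, adjusted p = 0.00070). TDH3 averaged -1.73 and -0.87 (0.86, SE 0.08, adjusted p = 4.04e-08), and CCW22, a cell wall mannoprotein gene, -1.70 and -0.84 (0.86, SE 0.09, adjusted p = 1.10e-07). NCE102 averaged -1.26 and -0.49 and HOR7 -1.51 and -0.77. Regions were named here only where the strains differed in 1 direction at all 7 time codes, so that agreement is no added support. At all 5 the deletion-strain average was still below 0.
HXT11 to HPF1 and HXT12 to CSS1 were higher by 0.69 and 0.67. Of the 14 cell wall regions 4 were higher, of the 28 near chromosome ends 12 were, and of the 51 ribosomal protein regions none was, with a median difference of 0.03.

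**Figure D4:**
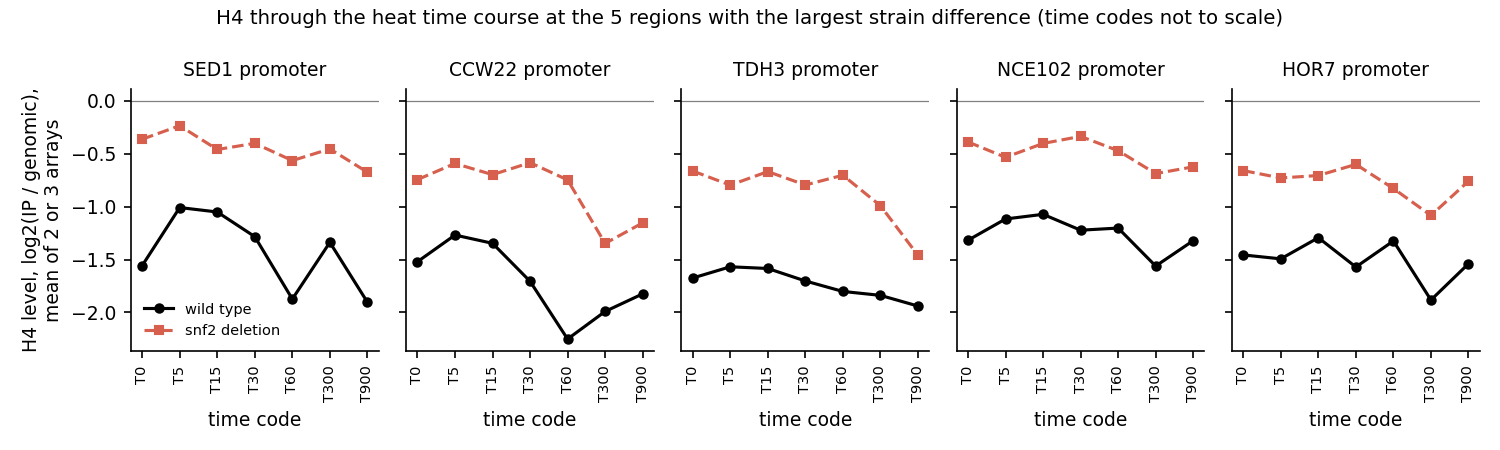
H4 level (vertical axis, log2 of immunoprecipitate over genomic DNA, mean of 2 or 3 arrays) at the 5 regions with the largest strain difference, by time code in wild-type (circles) and snf2 deletion cells (squares). The deletion strain lies above wild type at every code in all 5 panels, and regions were named only where the direction was the same at every code.

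Among the served genes mRNA at T0 was lower for 35 in arrays labelled snf2 deletion, where 4.42% of ORF probes were, and higher for 12, where 1.92% were. With either T0 replicate number left out no gene passed. TIP1 was 0.56 and 0.44 in wild type and -2.53 and -2.87 in the deletion arrays, and YGP1, a secreted glycoprotein, was 0.26 and 0.32 against -2.81 and -3.16. CWP1 fell by 2.48 and CHO2 by 1.90. The deletion values of TIP1 and YGP1 lay far below the wild-type pair. The 5 promoters with more H4 in deletion cells had mRNA differences of -1.61 for SED1 (adjusted p = 0.0309), -1.24 for TDH3 (0.00926) and -1.29 for HOR7 (0.0133), while NCE102 (0.40, adjusted p = 0.455) and CCW22 (-0.46, adjusted p = 0.14) did not pass. The highest were MET28, a regulator of sulfur genes (1.92), AAC1, a mitochondrial carrier (1.74), GAT1, an activator of nitrogen genes (1.53), RTS3 (1.21) and PCL5, a cyclin (1.11).

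On the arrays of stationary against log-phase H4, 38 of the 290 regions rose, where 2.33% of all probes did, and 3 fell, where 0.637% did. Without array 1 or 2 the 41 calls became 0 or 3. The largest rises stood beside the ribosomal DNA: RRT15 to MAS1 had 2.06, 1.67 and 2.22 (mean 1.98, SE 0.13, adjusted p = 0.0077), RRT15 had 1.78, 1.28 and 2.09, RNH203 had 1.80, 1.58 and 1.72, and the RDN5-6 promoter rose by 1.52. The 17 ribosomal DNA probes had a median of 2.22. The region between PAU10 and YRF1-1, near a chromosome end, rose by 1.20.
The regions that fell were CDC50, a subunit of a lipid flippase (-0.47, -1.10 and -0.90), TDH1 (-0.74, -0.81 and -0.50), and that shared by MET28 and YAP5, a regulator of iron genes (mean -0.55). TDH1 mRNA rose by 2.61 in stationary phase and MET28 mRNA by 2.83. Through genomic DNA, the median stationary minus log-phase difference of the 290 was 0.27, positive at 240 of them, but none passed the limma test (90 at an unadjusted p under 0.05; 0% of all probes were called).
mRNA of the served genes rose for 67 of 300 in stationary phase, where 17.6% of ORF probes rose, and fell for 87, where 17.7% fell. RTS3 rose most (3.88), then TKL2 (3.30), while CWP1 fell most (-4.33, -4.63 and -4.16), followed by RPS22A (-3.03), RPL6A (-3.01), RPS31 (-3.00) and RPL24A (-2.98). Of the 55 ribosomal protein mRNAs 50 fell. The median H4 change on the direct arrays was 0.08 where genes rose (54 regions) and 0.29 where they fell (67 regions), as against 0.21 at 102 regions with no gene called. At the other intergenic probes it was -0.04 where genes rose and 0.00 where they fell. The differences between these medians were not tested.

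Acetylated H4 was low where H4 was low. Against genomic DNA in unstressed cells the array medians of the 290 regions were between -0.78 and -0.74, and 258 were lower than the array centre, where 29.8% of all probes were. In log phase 204 were lower (24.2% of all probes) and 6 higher (27.5%). Since an acetylated H4 signal needs H4, these levels carry the H4 level with them.
The lowest at 30C was the region between YCL074W and GEX1 (-2.73), followed by RRT15 to MAS1 (-2.54, -2.47 and -2.77), RRT15 (-2.46), YRF1-6 to COS1 (-2.29) and HXT11 to HPF1 (-2.21, -2.28 and -2.16). TDH3 had -1.40, -1.70 and -1.48. The promoters of TDH1 (-0.09, 0.12 and -0.03) and EPL1 with BUD27 (0.08, 0.20 and 0.16) stood near 0. EPL1 is a subunit of the NuA4 complex, which acetylates H4.

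Set directly against H4 at 30C, acetylated H4 was lower at 101 of the 290 regions, where 27.2% of all probes were, and higher at 41, where 25.3% were. The median was -0.14. H4 of unstressed cells, by which the regions were chosen, is the denominator here, so a low H4 value raises the ratio. The labels do not say whether that H4 came from the same precipitates as the arrays of the choice. Without array 1 the 142 calls became 93. In log phase 48 were lower (17.7%) and 29 higher (19.6%), and without array 1, 2 or 3 the 77 calls became 19, 24 or 45.
The regions with the most acetylation per H4 at 30C served FCF1, a ribosome assembly factor (0.65), RPL34B (0.65), EGD2 with MDM31 (0.61), RBA50 (0.59) and RPS15 with RPP2A (arrays 0.65, 0.56 and 0.55). Those with the least were YCL074W to GEX1 (-2.19), the region right of YAL069W (-1.96), the chromosome end beside YHR219W (-1.62), YPR202W (-1.47) and YRF1-7 (-1.35). The probe right of YAL069W had no annotated neighbours and so was not counted among those near chromosome ends. Of the 51 ribosomal protein regions 14 were higher and 7 lower, and of the 14 cell wall regions 0 were higher and 5 lower. Over all probes 25.3% were higher and 27.2% lower, so the higher share of the ribosomal protein regions was near that of all probes. No region passed the limma test for 39C minus 30C (72 at an unadjusted p under 0.05; 0.0614% of all probes were called).

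On heat shock acetylated H4, set directly against unstressed, fell at 74 regions, where 14.1% of all probes fell, and rose at 20, where 12.4% rose. Among the larger falls were CUE4 with YML100W-A (-1.22), ATG41, an autophagy gene (-1.19), HHT2 with HHF2 (-0.96, -1.41 and -1.05) and SSA1 with EFB1 (-0.97). These 4 regions fell on the direct H4 arrays too.
The rises were at HXT12 to CSS1 (1.52, 1.41 and 1.26), HXT11 to HPF1 (1.35, 1.53 and 1.16), CHO2 (0.92), FAS1, a fatty acid synthase subunit (0.78), and MF(ALPHA)1 (0.76). Of the ribosomal protein regions 20 fell and none rose, with a median of -0.27, beside a median H4 change of 0.14. RPL12B had -0.66, -1.15 and -0.64 (mean -0.82, adjusted p = 0.0037). By the mRNA of the genes served, the median acetylation change was -0.33 where genes rose (44 regions) and -0.21 where they fell (81 regions), as against 0.00 and -0.19 at the other intergenic probes.

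In stationary phase acetylated H4 rose at 93 regions, where 8.51% of all probes rose, and fell at 11, where 12.1% fell. Without array 1, 2 or 3 the 104 calls became 56, 42 or 25. The sample descriptions of these 3 arrays name the anti-Myc antibody, so what they recovered is uncertain. GLY1 with IES6 had 2.25, 1.26 and 1.72, EPL1 with BUD27 had 1.77, 1.44 and 1.91, and OSH7, a sterol-binding protein gene, rose by 1.64. GLY1, threonine aldolase, had direct H4 changes of -0.12, 0.38 and 0.24, and EPL1 of 0.42, -0.51 and 0.14, neither past the test.
RPS15 with RPP2A fell (-1.73, -0.97 and -1.75), as did YHR218W (-1.41) and the chromosome end beside YHR219W (-1.52). On the arrays of acetylated H4 over H4, stationary minus log phase, 18 rose (2.28% of all probes) and 2 fell (2.63%). With the replicate number as a block, 13 rose and 7 fell. GLY1 with IES6 went from a mean of 0.20 to 1.79, and RPS15 with RPP2A from -0.22 to -1.59. Leaving out 1 array brought these 20 calls to between 0 and 10 for every one of the 6 arrays.

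In the time course the median acetylated H4 level of the 290 regions was -0.72 in wild type and -0.34 in deletion cells at T0, and -0.78 and -0.55 at T900. The array medians did not overlap at T0 (-0.93 and -0.51 against -0.41 and -0.28). No test was run, because the labels name different reference DNA for the strains. On the acetylation arrays of deletion cells the SNF2 ORF probe was between -3.09 and -1.20, and on those of wild type between -1.52 and -0.25.

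Snf2 stood above the array centre at many of these regions. In unstressed cells 56 of the 290 had more Snf2 than the array centre, where 11.5% of all probes did, and 1 had less, where 5.44% did. After heat shock 160 had more, where 12.7% of all probes did, and 2 had less, where 8.43% did. The median Snf2 level of the 290 was 0.26 and 0.45. The change itself passed the limma test at no region (70 at an unadjusted p under 0.05; 0.0614% of all probes were called). Without unstressed array 1 or 2 the 57 unstressed calls became 22 or 12, and without heat-shocked array 3 or 4 the 162 calls became 94 or 97.
The TDH3 promoter had 0.07, 0.25 and 0.41 unstressed and 0.80, 0.87, 1.75, 1.21 and 0.85 after heat shock (heat-shocked level against the array centre, limma adjusted p = 0.00098). SSA1 with EFB1 had 0.35, 0.12 and 0.21, then 0.92, 1.02, 1.34, 1.35 and 0.68 (heat-shocked level, adjusted p = 0.00038). At both promoters every heat-shocked array lay above every unstressed one, but the change itself did not pass the test at either. CUE4 with YML100W-A had -0.08, 0.00 and -0.17, then 0.26, 0.74, 1.06, 0.83 and 0.77.

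In unstressed cells the highest Snf2 levels were at RPL19B with YBL028C (1.78, 2.26 and 0.52), RPL19A with AAC3 (1.32), MF(ALPHA)1 (1.29), YRF1-6 to COS1 (1.41, 1.26 and 1.16) and UTP20 to HTA2 (1.23). At RPL19B the third array was far below the other pair. FRE8 with RPS0B was the region with less (-0.43). After heat shock the highest were YRF1-6 to COS1 (1.32, 1.83, 1.97, 1.74 and 1.53), YLL066C to PAU18 (1.50), PAU10 to YRF1-1 (1.50), YLR112W (1.47) and YLL067C to YLL066C (1.44). NIP7 to SRP72 (-0.56) and ADH4 to SUT532 (-0.29) had less.
By the mRNA of the genes served, Snf2 was higher at 33 of 44 regions whose genes rose on heat shock (median 0.61). It was higher at 28 of 81 whose genes fell (0.33) and at 66 of 103 with no gene called (0.57). At the other intergenic probes it was higher at 134 of 735 (0.11), 60 of 811 (-0.03) and 183 of 2299 (-0.02), in the same order. The differences were not tested. Of the listed groups it was higher at 11 of 14 cell wall, 6 of 7 glycolysis and 16 of 51 ribosomal protein regions, where 12.7% of all probes were.

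The 28 regions near chromosome ends combined low acetylation with high Snf2. Y′ elements, which carry the YRF1 helicase genes, recur at many ends in near-identical copies, and how many of these probes share such sequence was not tested. Snf2 was higher at 20 of the 28 in unstressed cells, with a median of 0.83, and at 52 of 375 other intergenic probes near ends, with a median of -0.02. Acetylated H4 was lower at all 28 at 30C, with a median of -1.67, and at 193 of the 375, with a median of -0.32. Acetylation per H4 was lower at 24, with a median of -0.49, and at 193 of the 375, with a median of -0.29. On the direct stationary arrays 11 of the 28 gained H4, with a median of 0.59, as did 5 of the 375, with a median of -0.01. The region between YRF1-6 and COS1 had stationary changes of 0.84, 0.77 and 1.22 (mean 0.94, SE 0.12, adjusted p = 0.0299). Its acetylation per H4 was -0.73, -0.91 and -0.67, all below 0.

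**Figure D5:**
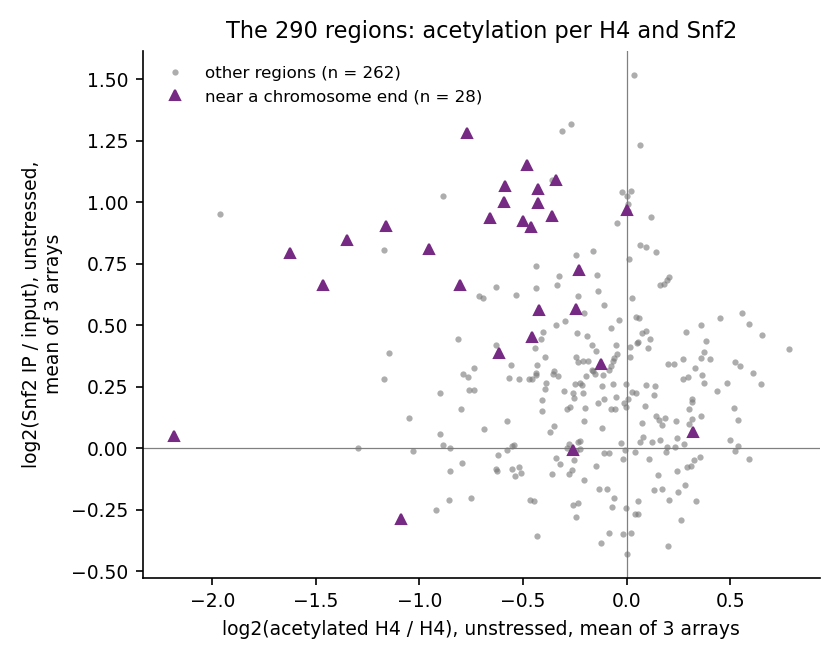
Acetylated H4 over H4 (horizontal axis, log2, mean of 3 arrays) and Snf2 over input (vertical axis, log2, mean of 3 arrays) in unstressed cells at each of the 290 regions. Triangles mark the 28 regions near a chromosome end, most of which lie left of 0 and above 0 on the Snf2 axis.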

How the data were processed

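The deposited values were log2 ratios of Cy5 over Cy3, processed by the authors. Their normalization is not given in the sources used here, and no array swapped the dyes, so a dye effect cannot be told apart from a ratio. Array medians as deposited ran from -0.14 to 0.26. Here each of the 167 arrays was centred on its median over all probes. The scanner signal behind a value is unknown, and the number of arrays limits the precision.

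Probes were fitted with limma 3.58.1 in R 4.3.3 (lmFit and eBayes). P-values were adjusted by the Benjamini-Hochberg method over all probes, or over ORF probes for mRNA, and called under 0.05. Probes needed values on 2 arrays of each group. The repeated array of 1 time-course sample was averaged with its pair. On simulated data, 82% of 200 probes changed by 1 log2 unit were recovered for the direct heat comparison of 13029 probes, 78% for H4 in wild type from T0 to T900 and 40% for stationary minus log-phase H4 through genomic DNA, where 10.11% of the calls were false. Tables were made with Python 3.11.15 and figures with matplotlib 3.10.9.

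Genes and their neighbours come from the RefSeq table of assembly R64, with 247 intergenic probes placed by name order. Its gene coordinates set the order and overlap of genes and the outermost genes of each chromosome. Probes were placed by the ORF in their name. No sequence was available for printing or motif search here.

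Named were the 15 lowest regions and those at the limit of the choice, in each comparison up to 5 called regions or genes with the largest change in each direction, with all arrays of 1 sign or groups not overlapping, and up to 6 of the lowest regions of each list. Levels of mRNA are given for genes that named regions serve. The members, the gene lists and this rule were set with earlier results of these data known. The deviations of Snf2 arrays with the same set number had r = 0.12, 0.19 and 0.11 over the probes. Differently numbered arrays of these groups reached r = 0.507 and r = 0.381, so these values do not settle whether the numbers are pairs. The main fits used no pairing, and the replicate block was an alternative. Alternatives were no centring, scaling to 1 median absolute deviation, robust eBayes, complete probes, the replicate block and leaving out each array, or each set of the time course. Some regions that the naming rule picked are not reported here.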

Additional observations from a re-analysis of the deposited data

How the results depend on the processing

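No named result changed sign under any alternative run, but the balance of calls could change. Acetylation per H4 in log phase had 29 higher and 48 lower, but 24 higher and 21 lower without log-phase array 3. Scaled to 1 median absolute deviation, the strain difference of H4 had 33 higher and 1 lower. Of the named results under their alternatives, 1146 kept their side of the threshold and 158 no longer passed, with the same sign. With that scaling, the calls among the 290 regions for H4 at T0 became 171 in deletion cells (94 before) and 177 in wild type (170). Those for H4 became 138 in log phase (207) and 70 in stationary phase (50). There were 0 calls for the stationary change of acetylation per H4 (20), 1 for its heat change (0) and 3 for the Snf2 heat change (0). Without centring, the stationary change of acetylation per H4 had 13 calls. With the replicate block, the heat change of acetylation per H4 had 1 call, the strain difference of H4 had 67 (48), and mRNA in deletion cells had 46 (47). The stationary change of acetylation per H4 kept 20 calls, but with 13 higher and 7 lower (18 and 2 before). The block changed no other count and no named call. Same-numbered samples of the H4 time course deviated together on average (r = 0.36, from -0.15 to 0.64), and other comparisons gave no such pattern. For Snf2 the same-numbered values were all positive, but some differently numbered arrays had higher ones. Leaving out 1 array gave between 47 and 196 calls for log-phase H4, 0 and 26 for stationary H4, 89 and 229 for heat-shocked H4, 57 and 152 for direct heat H4, 0 and 32 for direct stationary H4, 239 and 264 for unstressed acetylated H4, 181 and 210 for log-phase acetylated H4, 72 and 121 for its heat change and 25 and 56 for its stationary change. It gave between 93 and 155 calls for acetylation per H4 unstressed, 19 and 96 in log phase and 0 and 10 for its stationary change, 12 and 62 for unstressed Snf2, 94 and 168 for heat-shocked Snf2, 112 and 172 for heat mRNA and 113 and 144 for stationary mRNA. In the time course a whole set, all codes in both strains, was left out at once, which gave between 33 and 173 calls for wild-type T0, 2 and 100 for deletion T0 (T0 has no set 1) and 17 and 40 for the strain difference. Leaving out 1 T0 replicate number of both strains gave between 0 and 0 calls for mRNA in deletion cells. Comparisons with 0 calls stayed at 0 when arrays were left out. Where 1 array was left in a group, it is assumed to vary like the other groups. The cause of these changes was not tested beyond the smaller number of arrays. The direct heat mRNA fit gave 1 shared spread for all genes. Membership after heat shock, in stationary phase and in deletion cells was added after seeing the data. Scanner signals were not used here, so dim probes could not be set apart.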
